A study of Mus musculus with 22 samples.

Results

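The Myc, Max and Mxd network is a set of basic helix-loop-helix leucine zipper transcription factors that pair with each other and compete for the same DNA sites. It was followed here through 10 genes chosen by name: Myc, Max, Mnt, Mxd1, Mxd3, Mxd4, Mxi1, Mga, Mlx and Mlxip. All 10 were found by symbol among the 21674 genes listed with symbols, and all 10 passed the filter on low counts, which left 21183 of the 46603 genes of the count table for testing.

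The study sequenced mRNA of mouse CD8+ T cells, the T cells that recognise peptide on MHC class I, before and after stimulation through the T cell receptor. Naive cells were isolated from lymph nodes and spleen by depleting other cells with magnetic beads, and part of them was cultured on plate-bound antibody to CD3 with soluble antibody to CD28 for 24 h or 48 h. The 22 libraries came from 8 mice in 3 experiments, labelled 1, 3 and 5. Mice of the line labelled Tcaim KI Cd4Cre carried the label hocre (KI, 3 mice, 1 in each experiment) or wtcre (wt, 3 mice, 1 in each experiment), and both were sequenced naive, at 24 h and at 48 h. Mice of the Tcaim KO Cd4Cre line were labelled hocre (KO, 2 mice, in experiments 1 and 5) and were sequenced naive and at 48 h only. The Cd4 promoter drives Cre in developing T cells, CD8+ T cells included. The wt mice belonged to the KI line, both mice labelled KO were female, and the KI and wt mice were male in experiments 1 and 3 and female in experiment 5, so that line and genotype cannot be told apart in a comparison of KO with wt. The labels gave no ages.

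Library totals ranged from 62551905 to 93489115 counts. Tcaim stood at 138 to 260 CPM (counts scaled to library size) in the KI libraries and at 8.38 to 15.2 CPM in wt. In the libraries labelled KO it stood at 5.99 to 19.6 CPM, a range that includes that of wt, so these are called the libraries labelled KO throughout. All 5 markers of CD8+ T cells were detected in every library, with a summed level of 1950 to 4400 CPM. The summed markers of other cells were lower: 33.5 to 1170 CPM for B cells, 12.9 to 265 CPM for myeloid cells, 52.7 to 308 CPM for NK cells (mostly Nkg7, which activated CD8+ T cells also express) and 0.264 to 41.5 CPM for erythroid cells and platelets. The mouse labelled KO of experiment 1 had a B cell marker sum of 1170 CPM in naive cells against 134 to 425 CPM in the other naive libraries, and a sum of Cd4 and Foxp3 of 218 CPM naive and 166 CPM at 48 h against 25.5 to 73 CPM in all other libraries. On the second principal component of all tested genes, which held 8.11% of the variance, the 48 h library labelled KO of experiment 1 (score 127) and the wt 48 h library of experiment 3 (score 61.3) lay above the other 20 libraries, whose highest score was 23.6.

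In this network Myc binds DNA only as a dimer with Max, at E-box sites with the core CACGTG, and activates genes of cell growth, ribosome production and metabolism. Mxd1, Mxd3, Mxd4, Mxi1 and Mnt also pair with Max, occupy E-boxes and repress through Sin3 and histone deacetylases, while Mga is a large Max-binding protein of a Polycomb complex. Mlx pairs with some of the Mxd proteins and Mnt and, in a parallel arm, with Mlxip (MondoA), a sensor of glucose phosphates whose targets include Txnip and Arrdc4. Activated T cells are known to need Myc for growth and for their change of metabolism.

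Several network genes hold the E-box core in their own promoter, and these stretches are shown because the network's proteins bind that core. In RefSeq promoters of GRCm38.p6, taken as 250 bases before to 50 after the gene start and read on both strands, CACGTG stood in 2349 of 32851 promoters (7.15%). It was found in the promoter windows of Mxd4, Mnt, Mlx and Max, and not in those of Mxd1, Mxd3, Mxi1, Mga and Mlxip. The promoter of Myc was not analysed here. A pair of CACGTG cores 5 bases apart was found in 0 of the 32851 windows. Capitals mark the core, 5′ to 3′ on the gene's own strand. The stretches end at or before the RefSeq start, except that of Max, whose core spans it. RefSeq starts differ from those of the gene coordinates given below. By those coordinates the Max core lies before the gene, and the Mlx and Mxd3 stretches reach into their genes.
Mxd4 (chr5:34187864-34187960, minus strand): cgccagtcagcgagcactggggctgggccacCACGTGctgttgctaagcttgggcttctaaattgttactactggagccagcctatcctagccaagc
Mnt (chr11:74830741-74830866, plus strand): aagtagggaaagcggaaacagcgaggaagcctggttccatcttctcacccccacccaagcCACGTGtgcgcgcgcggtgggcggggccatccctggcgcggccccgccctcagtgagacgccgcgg
Mlx (chr11:101087190-101087289, plus strand): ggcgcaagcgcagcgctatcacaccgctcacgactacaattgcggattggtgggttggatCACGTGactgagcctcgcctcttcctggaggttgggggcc
Max (chr12:76962246-76962311, minus strand): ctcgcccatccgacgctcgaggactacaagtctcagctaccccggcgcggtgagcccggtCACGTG
The core began 219 bases before the RefSeq start in Mxd4, 123 in Mnt, 40 in Mlx and 3 in Max. For comparison, the 250 bases before the RefSeq start of Mxd3, the antagonist gene with the largest rise below, hold no such core. That start lies inside the gene coordinates given below, so the bases just before those coordinates were searched only in part.
Mxd3 (chr13:55329732-55329981, minus strand): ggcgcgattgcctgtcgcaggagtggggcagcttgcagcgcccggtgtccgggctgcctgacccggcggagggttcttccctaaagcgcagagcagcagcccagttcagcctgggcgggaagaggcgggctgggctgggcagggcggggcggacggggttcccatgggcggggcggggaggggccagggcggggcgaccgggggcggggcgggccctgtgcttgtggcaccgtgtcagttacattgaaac
These matches are descriptions of letters, and no binding was measured.

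In wt cells at 24 h Myc, Max and the antagonist gene Mxd3 rose, and Mnt, Mlx and Mlxip fell. These 6 of 10 members passed an adjusted p of 0.05 in edgeR's quasi-likelihood test with Benjamini-Hochberg adjustment, where 48.3% of all tested genes passed, so the share of members was close to the background. In KI cells at 24 h the same 6 members passed in the same directions, with 38.7% of all genes passing. At 48 h against naive, 4 members passed in wt (Myc and Mxd3 higher, Mxd4 and Mlxip lower; background 56.3%) and 6 in KI (Myc, Max and Mxd3 higher, Mnt, Mlx and Mlxip lower; background 48.6%). In the libraries labelled KO, 2 members passed at 48 h, Myc and Mxd3, both higher (background 44%). Between 24 h and 48 h only Mxd3 passed, higher in wt (background 7.49%) and in KI (background 2.68%). The comparisons of 24 h and 48 h with naive share the naive libraries. The p-values rest on the spread between libraries within groups, estimated over all 8 groups together, with no term for the mouse. With upper-quartile scaling in place of TMM the median log2 fold change of all genes moved from -0.05 to -0.23 in wt and from 0.01 to -0.16 in KI at 24 h, and at 48 h from -0.04 to -0.26 in wt, from -0.02 to -0.20 in KI and from 0.01 to -0.17 in the libraries labelled KO. The share of called genes that were higher moved with it, in the same order from 54.5% to 42.6%, 59.2% to 44.9%, 52.5% to 41.7%, 54.6% to 42.9% and 53.7% to 43.1%. The changes below are relative to the TMM centre. Markers of B cells and myeloid cells were lower after stimulation too. The B cell sum went from 254 to 425 CPM in wt naive libraries to 77.5 to 190 CPM at 24 h and 45.5 to 134 CPM at 48 h. The wt myeloid sum went from 96.7 to 232 CPM to 12.9 to 25.9 CPM and 13.7 to 24.1 CPM. In KI the B cell sum went from 202 to 346 CPM to 93.1 to 248 CPM and 102 to 216 CPM, and the myeloid sum from 90.4 to 187 CPM to 15.3 to 46.3 CPM and 14.2 to 22.9 CPM. Other sets did not all fall. The sum of Cd4 and Foxp3 in wt was 43.7 to 73 CPM naive, 26.6 to 44.8 CPM at 24 h and 25.5 to 45.3 CPM at 48 h. In KI it was 38.4 to 51.2 CPM, 33.6 to 51.6 CPM and 36.1 to 63.4 CPM. The NK sum in wt was 219 to 260 CPM naive, 52.7 to 111 CPM at 24 h and 142 to 308 CPM at 48 h. The part of other cells in the falls of Mnt, Mlx, Mlxip, Mxd4 and the Mlx targets was not tested. In bulk RNA, fewer cells that express a gene and less of its RNA per cell cannot be told apart.

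**Figure D1:**
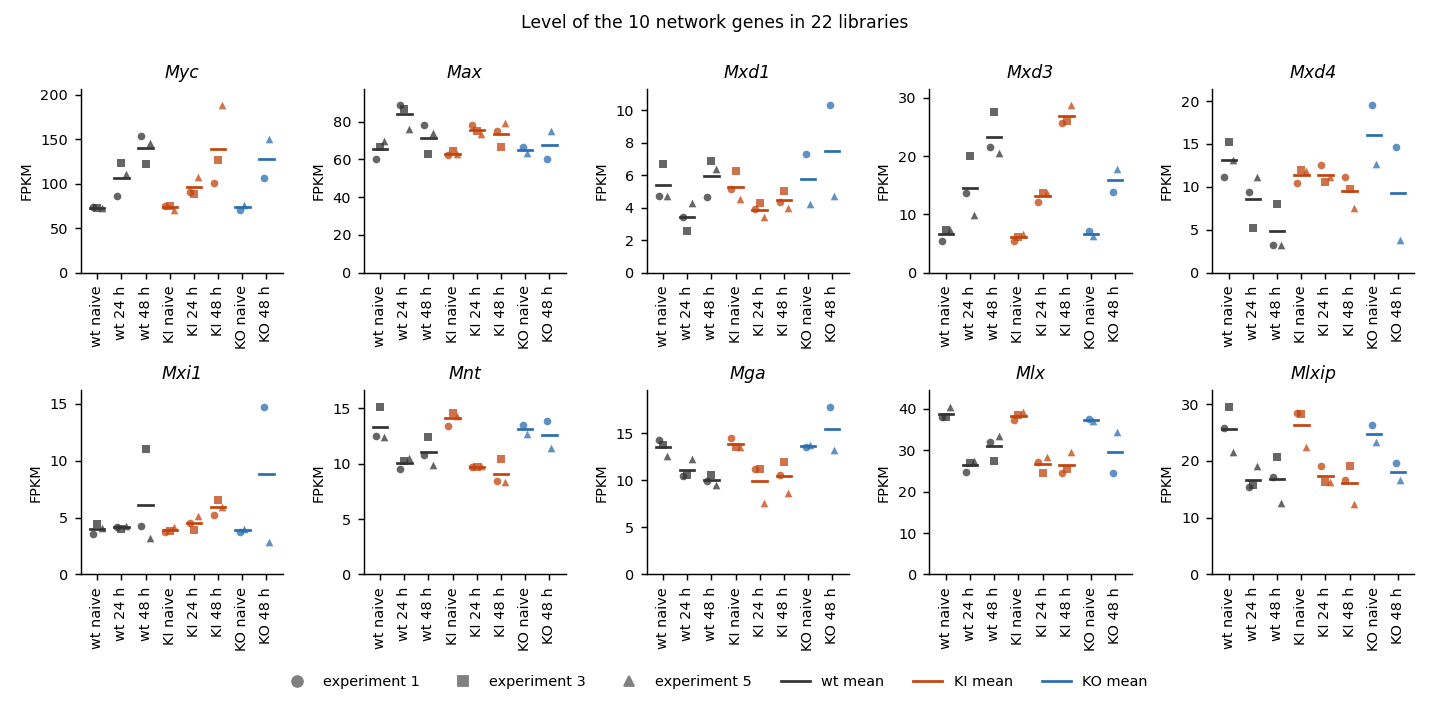
FPKM (reads scaled to gene length and library depth, linear axis from 0) of each of the 10 genes in each of the 22 libraries, grouped by genotype and time; points are libraries, marked by experiment, and lines are group means. The 8 naive libraries of Myc lie between 70.6 and 76.5 FPKM and every stimulated library lies above them.

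Myc (chr15:61985391-61990374, forward strand) was the member with the highest level per length in all 8 groups. In wt cells it stood at 73.3, 72.7 and 72.9 FPKM naive (experiments 1, 3 and 5), at 86, 123 and 111 FPKM at 24 h and at 153, 122 and 146 FPKM at 48 h. In KI cells the values were 74.4, 75 and 70.6 FPKM naive, 91.2, 88.7 and 108 FPKM at 24 h and 101, 127 and 188 FPKM at 48 h. The libraries labelled KO held 70.6 and 76.5 FPKM naive and 106 and 150 FPKM at 48 h (experiments 1 and 5). Every stimulated library was above every naive one, and the naive level was tight over genotypes and experiments, with a coefficient of variation of 2.81% over 8 libraries. Among stimulated cells the spread was wide, and by FPKM the libraries at 48 h overlapped those at 24 h in both KI and wt.

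In edgeR's quasi-likelihood test with Benjamini-Hochberg adjustment, Myc rose 1.56-fold in wt at 24 h (log2 fold change 0.64, SE 0.19, adjusted p = 0.00905) and 2.04-fold at 48 h (1.03, SE 0.19, adjusted p = 0.000146). In KI the rise was 1.42-fold at 24 h (0.50, SE 0.19, adjusted p = 0.0395) and 2.02-fold at 48 h (1.01, SE 0.19, adjusted p = 0.000224), and in the libraries labelled KO 1.82-fold at 48 h (0.86, SE 0.23, adjusted p = 0.00548). All 8 mice showed the rise. The step from 24 h to 48 h, with log2 fold changes of 0.39 in wt and 0.51 in KI, did not pass (0.231 and 0.168 after adjustment). By CPM Myc was higher at 48 h than at 24 h in 6 of 6 mice. In the wt mouse of experiment 3 that change was only 0.00833 on the log2 scale, and its FPKM went from 123 to 122. The wt call at 24 h was lost without the wt mouse of experiment 3 (log2 fold change 0.52, adjusted p = 0.101) or 5 (0.60, 0.0591). The KI call of Myc at 24 h was lost without any 1 KI mouse (adjusted p = 0.0824, 0.101 and 0.107 without experiments 1, 3 and 5), without the wt mouse of experiment 1 (0.0516) or 5 (0.0596), and with DESeq2 (0.0893), RLE size factors (0.0933), upper-quartile scaling (0.147) or limma on the variance-stabilised values (0.0962). The call in libraries labelled KO was lost without the mouse of experiment 5 (0.102), without the naive library of experiment 1 (0.0521) and in a fit of those groups alone (0.127).

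Max (chr12:76937269-76962201, reverse strand), the shared partner of Myc and its antagonists, was the second highest member per length in all 8 groups. Its wt values were 60.2, 66.5 and 69.5 FPKM naive, 88.6, 86.5 and 76.2 FPKM at 24 h and 78.1, 62.7 and 73.9 FPKM at 48 h. In KI they were 62.1, 64.4 and 62.8 FPKM naive, 78, 74.9 and 73.2 FPKM at 24 h and 75.1, 66.8 and 79 FPKM at 48 h. Those labelled KO held 66.6 and 63.6 FPKM naive and 60.4 and 75.1 FPKM at 48 h. Max was thus highest at 24 h in wt, where its libraries did not overlap the naive ones, and its whole range over 22 libraries was 1.47-fold. By edgeR's quasi-likelihood test with Benjamini-Hochberg adjustment Max rose at 24 h in wt (log2 fold change 0.44, SE 0.11, adjusted p = 0.00251) and KI (0.37, SE 0.11, adjusted p = 0.0109), and at 48 h in KI (0.31, SE 0.11, adjusted p = 0.0233). At 48 h it did not pass in wt (0.22, adjusted p = 0.0955) or in the libraries labelled KO (0.12, adjusted p = 0.487). The wt call was lost without the wt mouse of experiment 1 (0.35, 0.0665). The KI call of Max at 24 h was lost without the KI mouse of experiment 1 (0.12) and with RLE size factors (0.0609), upper-quartile scaling (0.121) or limma (0.0564), and that at 48 h without the KI mouse of experiment 1 or 5 (both 0.157) and with RLE size factors (0.0731), upper-quartile scaling (0.295), DESeq2 (0.0627) or limma (0.0888). The ratio of Myc to Max FPKM went from 1.12 ± 0.0879 (SD, n = 3) in wt naive cells to 1.28 ± 0.272 at 24 h and 1.96 ± 0.0149 at 48 h. In KI it went from 1.16 ± 0.0369 to 1.27 ± 0.169 and 1.88 ± 0.519, with a range of 1.35 to 2.39 at 48 h. In the wt mouse of experiment 1 the ratio was lower at 24 h (0.971) than in naive cells (1.22).

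**Figure D2:**
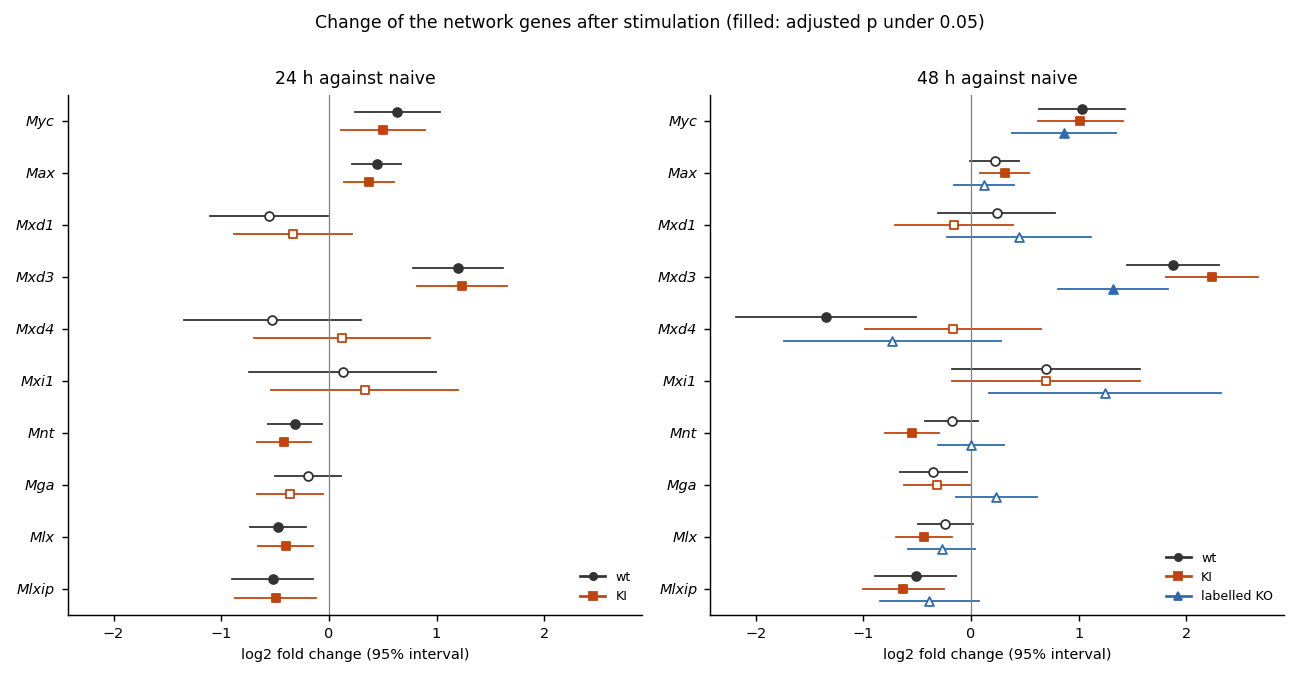
Log2 fold change against naive cells of the same genotype with its 95% interval, at 24 h (left) and 48 h (right); filled marks passed an adjusted p of 0.05. Mxd3 has the largest rise in each genotype, and Mxd4 is the member with the largest fall in wt at 48 h, at -1.35.

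The 5 antagonist genes of the Mxd and Mnt type did not move together. Mxd3 (chr13:55325168-55329823, reverse strand), the family member known from cells in S phase, rose at each step. Its wt values were 5.5, 7.32 and 7.36 FPKM naive, 13.7, 20 and 9.86 FPKM at 24 h and 21.5, 27.6 and 20.5 FPKM at 48 h. In KI they were 5.38, 6.2 and 6.57 FPKM naive, 12.2, 13.7 and 13.7 FPKM at 24 h and 25.7, 26 and 28.7 FPKM at 48 h. The libraries labelled KO held 7.08 and 6.23 FPKM naive and 13.9 and 17.8 FPKM at 48 h. Within wt and within KI no library of one time overlapped another time, and the 2 stimulated libraries labelled KO lay below all 6 other 48 h libraries. By edgeR's quasi-likelihood test with Benjamini-Hochberg adjustment the rise of Mxd3 at 24 h was 2.29-fold in wt (log2 fold change 1.20, SE 0.20, adjusted p = 7.61e-05) and 2.36-fold in KI (1.24, SE 0.20, adjusted p = 8.17e-05). At 48 h it was 3.67-fold in wt (1.88, SE 0.20, adjusted p = 3.56e-07), 4.72-fold in KI (2.24, SE 0.21, adjusted p = 7.1e-08) and 2.49-fold in the libraries labelled KO (1.32, SE 0.24, adjusted p = 0.000281, lost in a fit of those groups alone at 0.0724). From 24 h to 48 h Mxd3 rose by 0.68 in wt (adjusted p = 0.0412) and by 1.00 in KI (adjusted p = 0.0104), in 6 of 6 mice. That step lost its call in KI without any 1 KI mouse (0.171, 0.0965 and 0.28 without experiments 1, 3 and 5). In wt it lost it without the wt mouse of experiment 1 (0.232) or 5 (0.167), without the KI mouse of experiment 1, 3 or 5 (0.0841, 0.0912 and 0.0773), without the 2 libraries highest on component 2 (0.0753), with no filter on low counts (0.0612) and when only its own groups were fitted (0.211). Mxd3 shares 105 exon bases on the opposite strand with Prelid1, and whether the authors' counting used strand is not given in the sources used here.

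Mxd4 (chr5:34173883-34187720, reverse strand), known from resting and differentiated cells, went the other way in wt. There it stood at 11.1, 15.2 and 13.1 FPKM naive, 9.42, 5.17 and 11.1 FPKM at 24 h and 3.28, 8.03 and 3.22 FPKM at 48 h. In KI it stood at 10.4, 12 and 11.8 FPKM naive, 12.5, 10.6 and 11.2 FPKM at 24 h and 11.2, 9.81 and 7.59 FPKM at 48 h. The libraries labelled KO held 19.5 and 12.7 FPKM naive and 14.7 and 3.81 FPKM at 48 h. All 3 wt mice were below their naive level at 48 h, the KI libraries of the 3 times overlapped, and the 2 mice labelled KO lay apart at 48 h. In wt the fall at 48 h was 2.55-fold (log2 fold change -1.35, SE 0.40, adjusted p = 0.00768 by edgeR's quasi-likelihood test with Benjamini-Hochberg adjustment), and it lost its call without the wt mouse of experiment 1 (0.06) or 5 (0.0683). In KI the difference at 48 h was -0.17 (SE 0.39, adjusted p = 0.743), and in the libraries labelled KO -0.73 (SE 0.48, adjusted p = 0.229). At 24 h Mxd4 did not pass in wt (-0.53, adjusted p = 0.279) or KI (0.12, adjusted p = 0.835). Without the mouse labelled KO of experiment 1, whose CD4 and B cell marker sums stood apart, the 48 h change of Mxd4 in the other mouse of that label was -1.68 (adjusted p = 0.0256, with the lone library of each time assumed to vary like the other groups). Mxd4 shares 514 exon bases with the antisense gene Gm42846.

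Mnt (chr11:74830920-74845725, forward strand), the most broadly expressed antagonist, was lower at 24 h in each genotype sequenced then. Its wt values were 12.5, 15.1 and 12.4 FPKM naive, 9.49, 10.2 and 10.5 FPKM at 24 h and 10.8, 12.4 and 9.86 FPKM at 48 h. In KI they were 13.4, 14.6 and 14.3 FPKM naive, 9.71, 9.72 and 9.76 FPKM at 24 h and 8.4, 10.4 and 8.31 FPKM at 48 h. In the libraries labelled KO it stood at 13.5 and 12.7 FPKM naive and 13.8 and 11.4 FPKM at 48 h. The naive and 24 h libraries did not overlap in wt or KI, while at 48 h only the KI libraries stayed clear of their naive range. By edgeR's quasi-likelihood test with Benjamini-Hochberg adjustment the change at 24 h was -0.32 on the log2 scale in wt (SE 0.12, adjusted p = 0.0347) and -0.42 in KI (SE 0.12, adjusted p = 0.00982), and at 48 h it was -0.55 in KI (SE 0.12, adjusted p = 0.000978), -0.18 in wt (adjusted p = 0.206) and -0.00202 in the libraries labelled KO (adjusted p = 0.993). The wt call of Mnt was lost without the wt mouse of experiment 1 (0.141) or 3 (0.207), without the KI mouse of experiment 1 (0.0591) or 5 (0.0592), and with no filter on low counts (0.111). The KI call at 24 h was lost without any 1 KI mouse (0.053, 0.081 and 0.0752 without experiments 1, 3 and 5).

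Mxd1 (chr6:86647042-86669161, reverse strand) and Mxi1 (chr19:53310506-53375810, forward strand), the remaining Sin3-recruiting antagonists, were the lowest members per length in naive cells and passed in no comparison. Mxd1 in wt stood at 4.75, 6.68 and 4.72 FPKM naive, 3.45, 2.59 and 4.26 FPKM at 24 h and 4.63, 6.86 and 6.4 FPKM at 48 h. In KI it ranged from 4.52 to 6.24 FPKM naive, 3.46 to 4.26 FPKM at 24 h and 4 to 5.05 FPKM at 48 h. In wt the 24 h libraries of Mxd1 lay below both other times, where the difference from naive was -0.56 on the log2 scale (SE 0.26, adjusted p = 0.0855 in edgeR's quasi-likelihood test with Benjamini-Hochberg adjustment) and that from 24 h to 48 h 0.80 (SE 0.26, adjusted p = 0.0726). With the mouse as a replicate block both passed (-0.55, adjusted p = 0.0223, and 0.78, adjusted p = 0.0172). The highest Mxd1 values were in the mouse labelled KO of experiment 1, at 7.33 FPKM naive and 10.3 FPKM at 48 h, against 4.21 and 4.74 FPKM in that of experiment 5.

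Mxi1 stood at 3.59 to 4.42 FPKM in all 8 naive libraries and at 3.9 to 5.1 FPKM in all 6 libraries at 24 h. At 48 h it stood at 4.24, 11 and 3.16 FPKM in wt, 5.24, 6.57 and 5.93 FPKM in KI and 14.7 and 2.89 FPKM in the libraries labelled KO. The 2 high values belonged to the 2 libraries highest on component 2, and the other 48 h libraries ranged from 2.89 to 6.57 FPKM. In KI the 48 h libraries all lay above the naive ones, by 0.69 on the log2 scale (SE 0.42, adjusted p = 0.179 in edgeR's quasi-likelihood test with Benjamini-Hochberg adjustment). In a fit without those 2 libraries, an alternative chosen after seeing the data, the same KI change of Mxi1 passed (0.69, adjusted p = 0.000174). In the libraries labelled KO the change of Mxi1 was 1.24 (SE 0.51, adjusted p = 0.058), and it was -0.42 without the mouse of experiment 1 (adjusted p = 0.557), 2.05 without that of experiment 5 (adjusted p = 0.00786), 1.24 without the wt mouse of experiment 3 (adjusted p = 0.0325) and 1.20 with DESeq2 (adjusted p = 0.0362). In the library labelled KO of experiment 1 at 48 h, Mxi1, Mxd1 and Mga were each at their highest of all 22 libraries. That library also had the highest component 2 score and a Cd4 and Foxp3 sum of 166 CPM, and the part of either in these levels was not tested. Mxi1 shares 194 exon bases on the opposite strand with Gm10197.

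**Figure D3:**
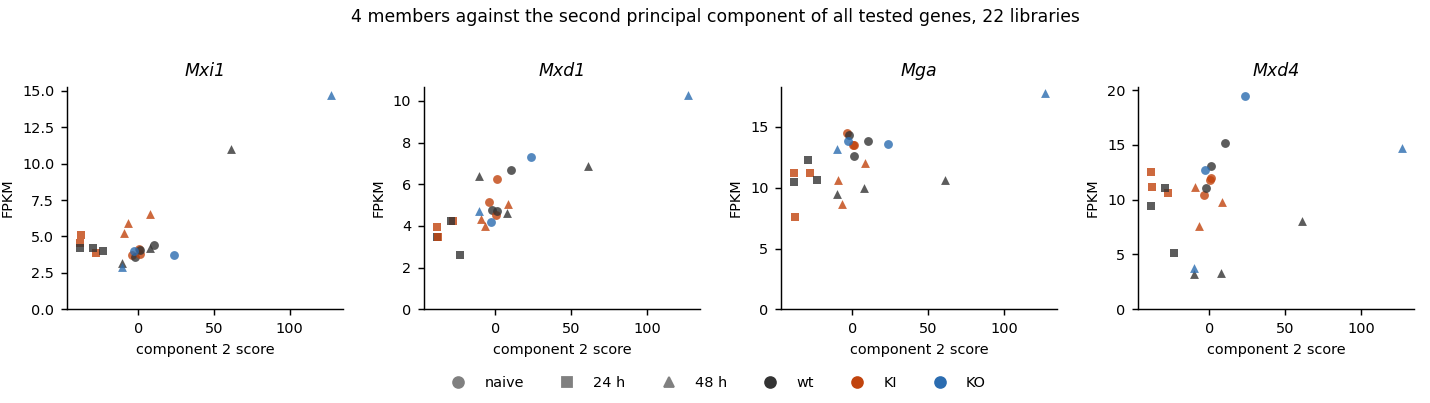
FPKM of 4 members (linear axis from 0) against the score of each library on the second principal component of all tested genes, coloured by genotype and marked by time. The 2 libraries at the right, labelled KO 48 h of experiment 1 and wt 48 h of experiment 3, hold the 2 highest Mxi1 values, 14.7 and 11 FPKM.

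Mga (chr2:119897228-119969581, forward strand), the Max-binding member of the Polycomb complex PRC1.6, changed little. In wt it stood at 14.3, 13.8 and 12.6 FPKM naive, 10.5, 10.6 and 12.3 FPKM at 24 h and 9.99, 10.6 and 9.5 FPKM at 48 h. In KI it stood at 14.5, 13.5 and 13.5 FPKM naive, 11.2, 11.2 and 7.55 FPKM at 24 h and 10.6, 12 and 8.65 FPKM at 48 h. The libraries labelled KO held 13.6 and 13.8 FPKM naive and 17.8 and 13.2 FPKM at 48 h. By FPKM the stimulated wt and KI libraries were all below the naive ones of their genotype, while those labelled KO were not. By CPM the wt libraries at 24 h overlapped the naive ones. In edgeR's quasi-likelihood test with Benjamini-Hochberg adjustment the change of Mga at 48 h was -0.35 in wt (SE 0.15, adjusted p = 0.05001, just above the threshold), -0.32 in KI (SE 0.15, adjusted p = 0.0821) and 0.23 in the libraries labelled KO (SE 0.18, adjusted p = 0.306). At 24 h it was -0.19 in wt (adjusted p = 0.287) and -0.36 in KI (adjusted p = 0.0599). With the mouse as a replicate block the changes in wt at 48 h (adjusted p = 0.0355), in KI at 24 h (0.0326) and in KI at 48 h (0.0492) passed, and with DESeq2 they passed too (0.0217, 0.0116 and 0.0334).

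Mlx fell at 24 h in wt and KI and at 48 h in KI, and Mlxip fell at both times in wt and KI. Mlx (chr11:101087277-101092207, forward strand), the partner of Mlxip, stood in wt at 38.1, 38 and 40.4 FPKM naive, 24.8, 26.8 and 27.5 FPKM at 24 h and 32, 27.5 and 33.5 FPKM at 48 h. In KI it stood at 37.2, 38.5 and 39.1 FPKM naive, 27.1, 24.6 and 28.4 FPKM at 24 h and 24.4, 25.5 and 29.6 FPKM at 48 h. Those labelled KO held 37.4 and 37.1 FPKM naive and 24.6 and 34.4 FPKM at 48 h. All 14 stimulated libraries of Mlx lay below all 8 naive ones, and the naive coefficient of variation was 2.94%. By edgeR's quasi-likelihood test with Benjamini-Hochberg adjustment Mlx fell by 0.47 in wt (SE 0.12, adjusted p = 0.00389) and by 0.40 in KI at 24 h (SE 0.12, adjusted p = 0.0146), and by 0.44 in KI at 48 h (SE 0.12, adjusted p = 0.0066). At 48 h the log2 fold change was -0.24 in wt (adjusted p = 0.104) and -0.27 in the libraries labelled KO (adjusted p = 0.147). The wt call of Mlx was lost without the wt mouse of experiment 1 (0.0529). The KI calls were lost without the KI mouse of experiment 1 (0.0687 at 24 h and 0.0654 at 48 h) or 3 (0.157 and 0.0689), and at 24 h also without that of experiment 5 (0.0552) or with no filter on low counts (0.0531). Mlx shares 385 exon bases on the opposite strand with Psmc3ip.

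Mlxip (chr5:123394798-123457932, forward strand), the glucose phosphate sensor, stood in wt at 25.8, 29.5 and 21.5 FPKM naive, 15.4, 15.7 and 19.1 FPKM at 24 h and 17.2, 20.7 and 12.6 FPKM at 48 h. In KI it stood at 28.5, 28.3 and 22.4 FPKM naive, 19.2, 16.3 and 16.3 FPKM at 24 h and 16.6, 19.1 and 12.5 FPKM at 48 h. Those labelled KO held 26.3 and 23.3 FPKM naive and 19.6 and 16.6 FPKM at 48 h. Every mouse was lower after stimulation, and the naive level was lowest in experiment 5 in all 3 genotypes. By edgeR's quasi-likelihood test with Benjamini-Hochberg adjustment Mlxip fell by 0.52 in wt (SE 0.18, adjusted p = 0.0225) and by 0.49 in KI at 24 h (SE 0.18, adjusted p = 0.0357), and by 0.51 in wt (SE 0.18, adjusted p = 0.0207) and 0.63 in KI at 48 h (SE 0.18, adjusted p = 0.00734). In the libraries labelled KO the log2 fold change was -0.39 (SE 0.22, adjusted p = 0.158). The wt calls of Mlxip were lost at 24 h without the wt mouse of experiment 1 (0.162) or 3 (0.177) and at 48 h without that of experiment 1 (0.0973) or 5 (0.0515). The KI calls were lost at 24 h without any 1 KI mouse (0.127, 0.234 and 0.0626 without experiments 1, 3 and 5) or the wt mouse of experiment 1 (0.0623), and at 48 h without the KI mouse of experiment 1 (0.0594). Mlxip shares 267 exon bases with the antisense gene Gm15747.

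Compared per length, the order of the members changed with stimulation. In wt naive cells the means ran from Myc (72.9 FPKM), Max (65.4 FPKM), Mlx (38.9 FPKM) and Mlxip (25.6 FPKM) through Mga (13.6 FPKM), Mnt (13.3 FPKM) and Mxd4 (13.1 FPKM) to Mxd3 (6.73 FPKM), Mxd1 (5.38 FPKM) and Mxi1 (4.04 FPKM). Mga, Mnt and Mxd4 did not differ beyond their spread. At 48 h in wt Mxd3 (23.2 FPKM) stood between Mlx (31 FPKM) and Mlxip (16.8 FPKM), overlapping both, and Mxd4 (4.84 FPKM) stood last, overlapping Mxd1 (5.96 FPKM). In KI at 48 h Mxd3 (26.8 FPKM) stood next after Max, overlapping Mlx (26.5 FPKM), and Mxd4 (9.54 FPKM) overlapped Mga (10.4 FPKM) and Mnt (9.05 FPKM). Myc and Max did not overlap in any group except wt at 24 h.

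The makeup of the summed antagonists Mxd1, Mxd3, Mxd4, Mxi1 and Mnt changed more than the sum. In wt the sum was 42.6 ± 5.73 FPKM naive, 40.7 ± 1.1 FPKM at 24 h and 51.2 ± 12.8 FPKM at 48 h (SD, n = 3). In KI it was 40.8 ± 2.41, 42.7 ± 0.523 and 55.8 ± 1.84 FPKM, so that the KI libraries at 48 h lay above the naive ones. In wt Mxd3 made up 15.8% ± 1.64 of it naive, 35.5% ± 11.6 at 24 h and 45.9% ± 3.49 at 48 h, and Mxd4 30.8% ± 0.995, 21.2% ± 7.96 and 9% ± 2.74. In KI the share of Mxd3 went from 14.8% ± 0.929 to 48.1% ± 4.03 at 48 h and that of Mxd4 from 28% ± 0.661 to 17.1% ± 3.26. Mxd3 was thus the largest contributor at 48 h in wt and KI. In the libraries labelled KO at 48 h its share was 20.6% in experiment 1, below Mxd4 at 21.9%, and 43.9% in experiment 5. The ratio of Myc to this sum was 1.73 ± 0.234 in wt naive, 2.62 ± 0.425 at 24 h and 2.89 ± 0.9 at 48 h, and in KI 1.8 ± 0.131, 2.24 ± 0.217 and 2.5 ± 0.847. At 48 h the ratio split the libraries of 1 group, with 3.43, 1.85 and 3.39 in wt, 1.85, 2.19 and 3.45 in KI, and 1.57 and 3.69 in the libraries labelled KO (experiments 1, 3 and 5, and 1 and 5). These RNA ratios carry no test and say nothing of protein.

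**Figure D4:**
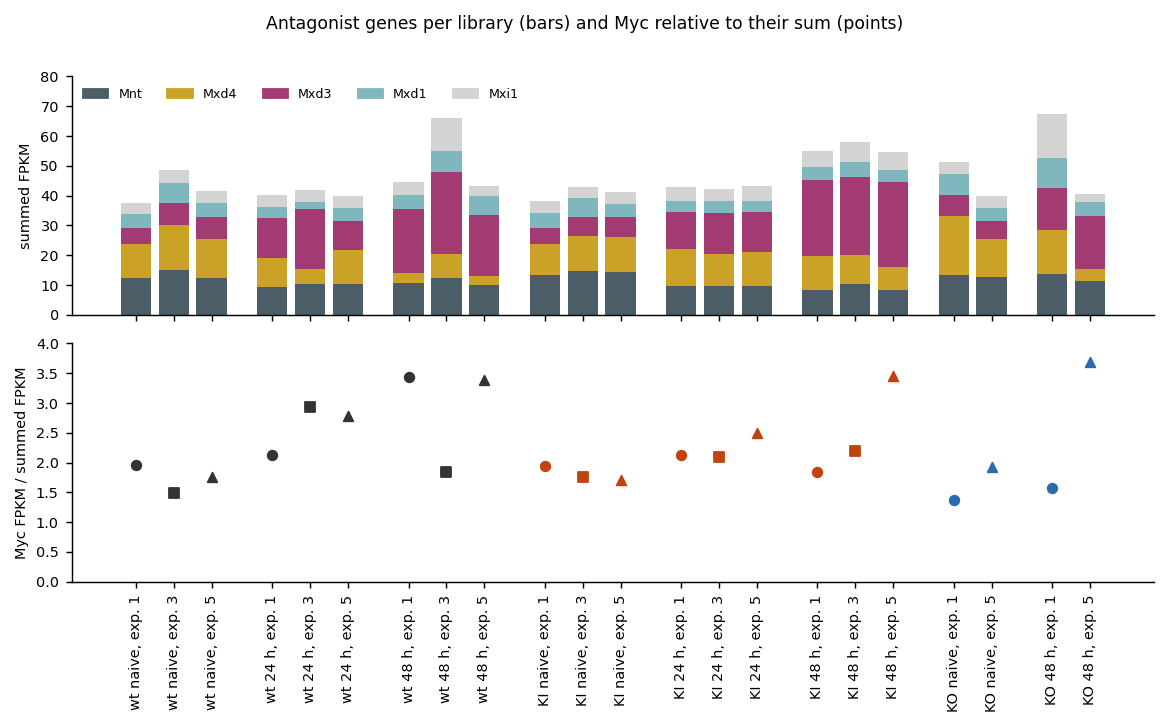
Top, summed FPKM of the 5 antagonist genes in each library, stacked by gene; bottom, Myc FPKM divided by that sum, both axes linear from 0, with points coloured by genotype and shaped by experiment. The Mxd3 part grows from naive to 48 h in each genotype, and at 48 h the ratio ranges from 1.57 to 3.69.

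Between genotypes no member passed the test in any comparison. For KI against wt, 0 of 10 members passed in naive cells (background 0.113%), at 24 h (background 0.00472%) and at 48 h (background 4.17%) in edgeR's quasi-likelihood test. At an unadjusted p under 0.05 the counts were 0, 0 and 2, against 434, 1903 and 3793 of all 21183 tested genes. DESeq2 passed 0 members in each. Myc was the closest to equal at 48 h, at 347 CPM in both genotypes (log2 fold change 0.00, 95% interval -0.39 to 0.39). In naive cells its difference was 0.02 (95% interval -0.37 to 0.41) and at 24 h -0.11 (-0.51 to 0.28). The intervals of Max were -0.27 to 0.19 naive, -0.34 to 0.12 at 24 h and -0.17 to 0.28 at 48 h, so that the data bound its differences more closely than those of Myc.

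**Figure D5:**
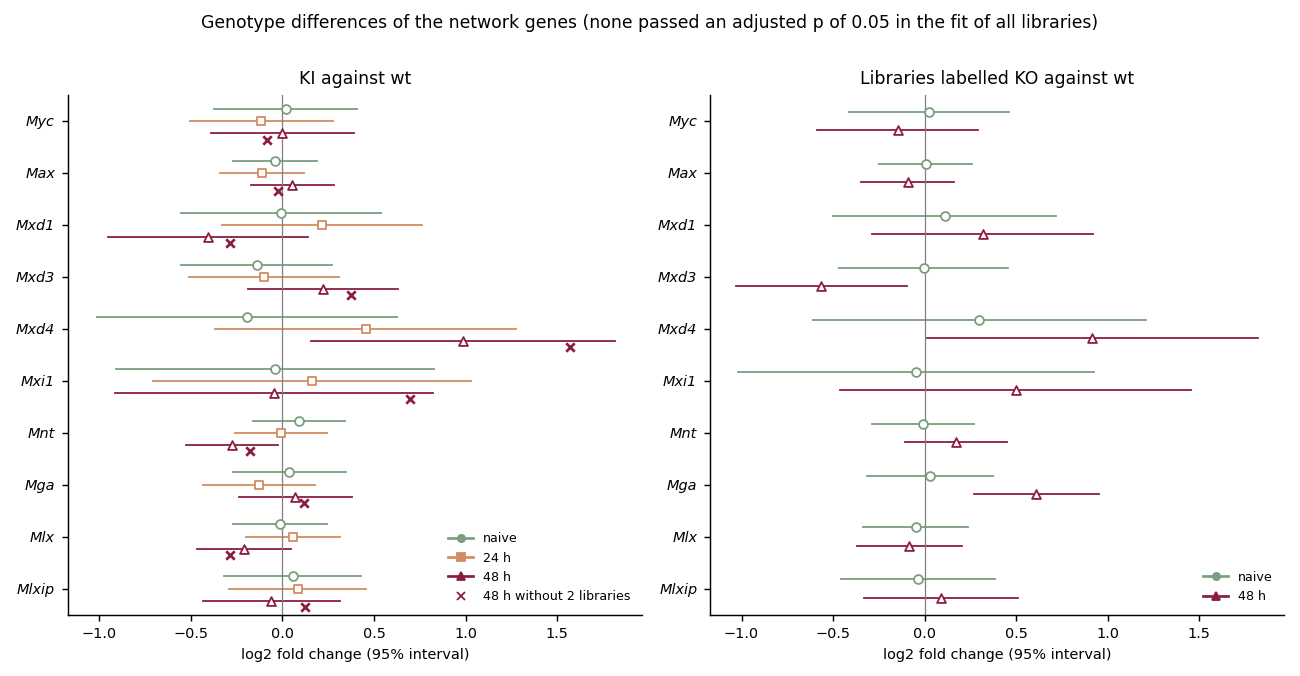
Log2 fold change of KI (left) and of the libraries labelled KO (right) against wt at each time with its 95% interval; open marks did not pass an adjusted p of 0.05, and crosses give the 48 h value without the 2 libraries highest on component 2. Most values lie near 0, and Mxd4 at 48 h lies to the right of 0 in both panels.

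The 2 members under an unadjusted p of 0.05 at 48 h in KI against wt were Mxd4 and Mnt. Mxd4 was 1.98-fold higher in KI (log2 fold change 0.99, SE 0.40, adjusted p = 0.184 by edgeR's quasi-likelihood test with Benjamini-Hochberg adjustment), with 73 CPM against 36.8 CPM. Within the experiments the log2 difference was 1.80 in experiment 1, 0.28 in experiment 3 and 1.26 in experiment 5, higher in KI in 3 of 3. The wt library of experiment 3, at 8.03 FPKM, overlapped the KI range of 7.59 to 11.2 FPKM, and the other wt libraries did not. Mnt was lower in KI (-0.28, SE 0.12, adjusted p = 0.225), with within-experiment differences of -0.34, -0.26 and -0.22.

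Whether the response to stimulation differed between KI and wt was tested as an interaction. In it 0 of 10 members passed at 24 h (background 0%) and 0 at 48 h (background 0.387%), and 0 by DESeq2. At an unadjusted p under 0.05 the counts were 0 and 2, against 694 and 2054 of all 21183 tested genes. For Mxd4 the interaction at 48 h was 1.18 (SE 0.56, adjusted p = 0.505 by edgeR's quasi-likelihood test with Benjamini-Hochberg adjustment) and for Mnt -0.37 (SE 0.17, adjusted p = 0.493). Its fall in wt and the absence of a called fall in KI are therefore not shown to differ in the fit of all libraries. Without the wt mouse of experiment 3, Mxd4 passed in KI against wt at 48 h (1.57, adjusted p = 0.0237), where 6.15% of all genes passed. Without the 2 libraries highest on component 2 it passed there (1.57, adjusted p = 0.00114) and in the interaction (1.76, adjusted p = 0.00857), and Mxi1 passed in both too (0.69, adjusted p = 0.00343, and 0.73, adjusted p = 0.033), against -0.05 and -0.00427 in the fit of all libraries. In that fit 17.5% of all genes passed in KI against wt at 48 h and 5.95% in the interaction. The alternative was chosen after seeing the data, and it leaves out a wt library that was itself high in Mxd4 and Mxi1.

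For the libraries labelled KO against wt, 0 of 10 members passed in naive cells (background 0.0236%) and at 48 h (background 0.0283%), and 0 in the interaction at 48 h (background 0%). At an unadjusted p under 0.05 edgeR gave 0, 3 and 1 members, against 277, 1465 and 492 of all 21183 tested genes. DESeq2 with adjustment gave 0 in each. The 3 at 48 h were Mga (log2 fold change 0.61, SE 0.16, adjusted p = 0.542 by edgeR's quasi-likelihood test with Benjamini-Hochberg adjustment), Mxd3 (-0.56, SE 0.22, adjusted p = 0.68) and Mxd4 (0.92, SE 0.43, adjusted p = 0.716). The libraries of Mga and Mxd3 did not overlap between the groups. With 2 libraries against 3 such separation arises easily, and how many of all genes showed it was not counted. The 2 mice labelled KO differed: within experiment 1 Mxd4 was 2.16 higher than in wt on the log2 scale and Mxi1 1.78 higher, and within experiment 5 the differences were 0.23 and -0.14. Without the mouse of experiment 5, which leaves that of experiment 1 alone, Mxd4 (1.58, adjusted p = 0.0128), Mxi1 (1.23, adjusted p = 0.0373), Mga (0.80, adjusted p = 0.00531) and Mxd1 (0.77, adjusted p = 0.043) passed, as did 21.5% of all genes. Line and genotype cannot be told apart in either mouse. In experiment 1 the mouse labelled KO was female and the wt mouse male, and its B cell and CD4 marker sums stood apart, whereas in experiment 5 both mice were female and the sums of the mouse labelled KO were 134 and 34.6 CPM in naive cells.

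Genes that work with the network were counted in the same way. Of 57 known Myc target genes, a list chosen with earlier results of these data in view, 48 rose and 1 fell in wt at 24 h (median log2 fold change 1.1, against -0.05 over all genes, of which 48.3% passed), led by Hk2 (3.80, SE 0.30), which phosphorylates glucose, the mitotic kinase Plk1 (3.60, SE 0.44), the replication helicase subunit Mcm5 (3.37, SE 0.18) and the nucleotide phosphatase Dctpp1 (3.25, SE 0.35). Their adjusted p-values in edgeR's quasi-likelihood test with Benjamini-Hochberg adjustment were 9.96e-09, 2.25e-06, 9.95e-11 and 6.07e-07. The gene that fell was Dusp2 (-1.42, SE 0.24, adjusted p = 0.000102), a phosphatase of MAP kinases, named after its value was seen. In KI at 24 h 32 rose and 1 fell (median 0.72, with 38.7% of all genes passing). At 48 h against naive 45 rose and 2 fell in wt (median 0.99, all genes 56.3%), 32 and 1 in KI (0.81, all genes 48.6%), and 35 and 1 in the libraries labelled KO (0.81, all genes 44%). Of the targets in libraries labelled KO, 16 passed without the mouse of experiment 5, where 34.2% of all genes passed, and 10 in a fit of those groups alone, where 6.23% did.

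For KI against wt the median of the 57 Myc target genes was 0.03 naive, -0.30 at 24 h and -0.14 at 48 h, against 0.01, 0.01 and 0.00 over all genes. No target passed naive or at 24 h. At 48 h 2 of the 57 passed where 4.17% of all genes did, so the share of targets was close to the background. By edgeR's quasi-likelihood test with Benjamini-Hochberg adjustment Las1l, a ribosomal RNA processing factor, was higher in KI (0.49, SE 0.13, adjusted p = 0.0371) and Rabepk was lower (-0.46, SE 0.11, adjusted p = 0.0239). At 24 h 53 of the 57 values were below 0, and how many of all genes were was not counted. On the first principal component of all tested genes (59.2% of the variance) the naive libraries scored -132 to -110. There the KI libraries at 24 h scored 39.3, 48.1 and 20.7 and the wt libraries 72.2, 82.8 and 38.4 (experiments 1, 3 and 5). The part of that difference in the target values was not tested. The count at 48 h was 0 with no filter on low counts (all genes 2.08%) and in a fit of KI and wt at 48 h alone (0.597%). It was also 0 without the KI mouse of experiment 1, 3 or 5 (0.432%, 1.35% and 1.91%) and without the wt mouse of experiment 1 (0.551%) or 5. It was 4 without the wt mouse of experiment 3 (all genes 6.15%). It was 5 without either mouse labelled KO (all genes 7.93% without that of experiment 1). Without the 2 libraries highest on component 2 it was 24 (1 higher, 23 lower), where 17.5% of all genes passed. For the libraries labelled KO against wt at 48 h no target passed (median -0.20), and without the mouse of experiment 5 36 passed (1 higher, 35 lower), where 21.5% of all genes did. The Myc gene itself did not pass in any comparison of genotypes.

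Cofactors and corepressors changed in both directions. Of 15 Myc cofactors and stability factors, 6 rose and 2 fell in wt at 24 h (median 0.13), among them the kinase Aurka (2.40, SE 0.30), the ubiquitin ligase subunit Skp2 (2.25, SE 0.24) and the helicases Ruvbl1 (1.75, SE 0.27) and Ruvbl2 (1.69, SE 0.17). Of 9 genes of the Sin3 corepressor used by Mxd and Mnt, 6 rose and 1 fell (median 0.40), led by Rbbp7 (1.44, SE 0.17), Sap30 (1.35, SE 0.19), Rbbp4 (1.11, SE 0.13) and Hdac2 (0.64, SE 0.15). Of 10 partners of Mga in PRC1.6, 4 rose and 1 fell (median 0.31), with Tfdp1 (3.1, SE 0.30), E2f6 (1.14, SE 0.20), Cbx1 (1.07, SE 0.11) and Pcgf6 (0.43, SE 0.14) higher, against 48.3% of all genes passing. The genes that fell, named after their values were seen, were Usp28 (-0.87) and Gsk3b (-0.49) among the cofactors, Ncor1 (-0.58) among the Sin3 genes and Ring1 (-0.38) among the PRC1.6 partners. The number called was 4 for Sin3 without the wt mouse of experiment 1 (all genes 33.2%) or 3 (all genes 34.6%). For PRC1.6 it was 3 without the wt mouse of experiment 3 (all genes 34.6%). It was 8 in a fit of those groups alone (all genes 60.9%) or without the 2 libraries highest on component 2. In KI at 24 h 6 cofactors rose and 3 fell, 5 Sin3 genes rose and 2 fell, and 3 PRC1.6 genes rose, with 38.7% of all genes passing. There 5 cofactors passed without the KI mouse of experiment 1 or 5, and 4 Sin3 genes without that of experiment 1 or 3. The shares of all genes were 23.9%, 23.1% and 29.8% without the KI mouse of experiments 1, 3 and 5. With upper-quartile scaling 5 PRC1.6 genes passed (all genes 40.4%). For KI against wt none of the cofactors or Sin3 genes passed at any time in the fit of all libraries. At 48 h 1 cofactor passed with DESeq2 (all genes 8.88%) or without either mouse labelled KO (all genes 7.93% without that of experiment 1). Without the 2 libraries highest on component 2, 3 cofactors and 2 Sin3 genes passed, as did 17.5% of all genes. Of the PRC1.6 partners Ring1 was higher in KI at 48 h (0.58, SE 0.14, adjusted p = 0.0229 in edgeR's quasi-likelihood test with Benjamini-Hochberg adjustment), a call that was lost in a fit of KI and wt at 48 h alone, without any 1 KI mouse and without the wt mouse of experiment 1 or 5.

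Of the targets of the Mlx arm, Txnip fell in every genotype, and the fall of Arrdc4 passed in wt and in the libraries labelled KO. Txnip, which restrains glucose uptake, went from 1010 ± 229 CPM in wt naive cells to 214 ± 88.7 CPM at 24 h and 159 ± 33 CPM at 48 h (SD, n = 3). In KI it went from 880 ± 92.1 CPM to 368 ± 70 CPM at 24 h and 205 to 254 CPM at 48 h, and all stimulated libraries lay below all naive ones. By edgeR's quasi-likelihood test with Benjamini-Hochberg adjustment Txnip changed by -2.24 in wt (SE 0.25, adjusted p = 7.72e-07) and by -1.26 in KI at 24 h (SE 0.24, adjusted p = 0.000417). The difference between these responses was 0.98 (SE 0.34), with an unadjusted p of 0.00887 and an adjusted p of 1. At 48 h it changed by -2.67 in wt (adjusted p = 6.63e-08), -1.95 in KI (adjusted p = 3.43e-06) and -2.70 in the libraries labelled KO (adjusted p = 1.66e-06).

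Arrdc4, a relative of Txnip, fell in wt at 24 h (-0.74, SE 0.28, adjusted p = 0.036) and 48 h (-1.39, SE 0.29, adjusted p = 0.00045) and in the libraries labelled KO at 48 h (-2.30, SE 0.36, adjusted p = 5.64e-05), by edgeR's quasi-likelihood test with Benjamini-Hochberg adjustment. In KI the 24 h change was -0.03 (adjusted p = 0.939) and the 48 h change -0.69 (adjusted p = 0.0508). The difference between the KI and wt responses did not pass at 24 h (0.71, SE 0.40) or 48 h (0.70, SE 0.40, adjusted p = 0.619). Arrdc4 stood at 9.15 ± 1.88 CPM in wt and 5.94 ± 1.63 CPM in KI naive cells (SD, n = 3). At 24 h it stood at 5.46 ± 1.32 and 5.81 ± 1.71 CPM, and at 48 h at 3.49 ± 0.186 and 3.68 ± 1.09 CPM. Of the 2 target genes, 1 in place of 2 passed in wt at 24 h without any 1 wt mouse or with no filter on low counts, and 1 in place of 2 in the libraries labelled KO in a fit of those groups alone. In KI at 48 h both passed with replicate blocks by mouse or experiment, DESeq2, limma, RLE or upper-quartile scaling, in a fit of those groups alone, and without the KI mouse of experiment 1, either mouse labelled KO or the 2 libraries highest on component 2. The other Myc family and Mondo genes were scarce. Mycl had 39 to 52 counts in wt naive libraries and 1 to 4 at 24 h (adjusted p = 9.66e-05 in the same test), Mycn had 3 to 27 counts in the wt libraries, and Mlxipl had at most 24 counts in any library.

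Across the 22 libraries, the log2 CPM of Myc and Mxd3 had a Pearson correlation of 0.885, that of Max and Mnt of -0.83 and that of Mnt and Mlxip of 0.815. These points share the step from naive to stimulated cells, and over the 14 stimulated libraries alone the values were 0.611, -0.73 and 0.625. The tested genes closest in pattern to Myc were Pcid2 (0.943), Tmem11 (0.94) and Nob1 (0.937), and those closest to Max were Ndufa5 (0.948), Gm7701 (0.947) and Tulp4 (0.947). For Mxd3 they were Fzr1 (0.985), Prelid1 (0.98) and Pfkl (0.979), for Mxd4 Gm42846 (0.964), Pias3 (0.961) and Rere (0.918), and for Mxi1 Gm10197 (0.966), Dap (0.964) and Csnk1a1 (0.932). Prelid1, Gm42846 and Gm10197 are the genes that share exon bases with those members on the opposite strand, so reads of the members and of these neighbours may not be told apart. For Mnt they were Gm38257 (0.913), Pdcd6ip (0.904) and Iqsec1 (0.896), for Mxd1 Fam19a3 (0.893), Slc30a9 (0.848) and Eif2ak3 (0.843), for Mga Gm44199 (0.897), Akap9 (0.888) and Cep135 (0.883), for Mlx Tmem189 (0.944), Gm26541 (0.931) and Mob3a (0.928), and for Mlxip Ubr4 (0.943), Baz2a (0.942) and Nisch (0.942).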

How the data were processed

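Messenger RNA was sequenced in 22 libraries of 8 mice. Per the submitters' processing notes the tools were bcl2fastq 2.20.0, TopHat2 2.1.0, Bowtie2 2.2.5, SAMtools 0.1.19, featureCounts and DESeq2 1.6.3, with the builds GRCm38 and mm10. The annotation and the strand setting of the counting are not given in the sources used here. The authors deposited raw counts per gene, log2 values (normalized, and variance-stabilised) and FPKM. The log2 normalized values equalled log2 of the count over 1 factor per library plus 1, within 5.33e-14, and FPKM were that normalized count over 1 length per gene (checked on 10416 genes).

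Counts were tested with edgeR 4.0.16 (R 4.3.3): filterByExpr (minimum count 10, total 15), TMM scaling, 8 group means in 1 fit of all 22 libraries, robust quasi-likelihood F tests for 15 comparisons, and Benjamini-Hochberg adjustment over 21183 genes, with a call at an adjusted p under 0.05. FPKM served for levels, with no test. CPM are counts scaled to the TMM-adjusted library total. Alternatives were DESeq2 1.42.0, limma 3.58.1 on the deposited variance-stabilised values, other scalings, no filter, fits of the compared groups alone, replicate blocks, and leaving out each mouse. The edgeR procedure was tested on simulated data.

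The experiment numbers pair KI and wt libraries per the labels, and each mouse gave all its times. Deviations from the group means correlated with a median r of 0.22 for KI and wt of 1 experiment (8 of 9 pairs above 0.1) and of 0.155 for libraries of 1 mouse (19 of 20). No 2 libraries of a group agreed within sampling noise (chi-square per degree of freedom at least 15.4 over 20 pairs).

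The members, the gene lists and the alternatives were chosen with earlier results of these data known. All 10 members are named, and for each the 3 tested genes with a symbol and the highest correlation over 22 libraries. List examples are at most 4 called genes with the largest change in wt at 24 h and in KI against wt at 48 h, and lists of 3 or fewer genes are named in full. Genes outside this rule are said to be named after their values were seen. Precision rests on 2 or 3 mice a group.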

Additional observations from a re-analysis of the deposited data

How the results depend on the processing

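Of 26 called differences of a member, 7 were called under every alternative, and of 124 not called, 24 were called under at least 1. Leaving out 1 mouse, of whichever group, moved the number of members called from 2 to 7 in wt at 24 h against naive (6 with all), 1 to 7 in KI (6), 0 to 2 in wt from 24 h to 48 h (1), 0 to 1 in KI (1), 2 to 5 in wt at 48 h against naive (4), 3 to 6 in KI (6), 0 to 1 for KI against wt at 48 h (0) and 0 to 4 for the libraries labelled KO against wt at 48 h (0). Fewer mice leave fewer degrees of freedom. The share of all genes that passed moved as well. At 24 h against naive it was 48.3% in wt and 38.7% in KI with all mice. It was 33.2% in wt without the wt mouse of experiment 1, and 23.9% in KI without the KI mouse of experiment 1. Without the mouse labelled KO of experiment 1 it was 52.4% in wt and 43.5% in KI. From 24 h to 48 h in wt, 0 members passed with no filter (all genes 3.72%) or in a fit of those groups alone (1.91%). There 2 passed with the mouse as a replicate block (8.93%), with DESeq2 (11.9%) or without the 2 libraries highest on component 2. In wt at 48 h against naive 7 passed with upper-quartile scaling (all genes 58.1%) or without those libraries. In the libraries labelled KO 0 passed in a fit of those groups alone (all genes 6.23%) and 1 without the naive library of experiment 1. Without the 2 libraries highest on component 2, which was chosen after seeing the data, 2 passed for KI against wt at 48 h and 2 in the interaction at 48 h. Mxi1 changed sign there, to 0.695 and 0.734. For these cases the cause was not tested. Blocks by mouse or experiment changed no call of a member other than those of Mga and Mxd1.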
